A study of Mus musculus with 10 samples.

Results

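Mitochondrial ribosomal proteins are the protein parts of the ribosome inside mitochondria, and their mRNAs were followed here in macrophages given a low or a high dose of a Toll-like receptor 4 (TLR4) ligand. The members were all genes of the deposited count table whose symbol begins with Mrpl or Mrps and a number, 76 of 23284 genes. Of these, 47 carried the large subunit prefix (Mrpl) and 29 the small subunit prefix (Mrps), and they lay on 17 chromosomes. All 76 passed the filter on low counts.

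The cells were macrophages, phagocytes grown from the bone marrow of C57BL/6J mice and matured from marrow progenitors in culture with macrophage colony-stimulating factor. The 5 groups were untreated cells (0 h) and cells given Kdo2-lipid A, the part of lipopolysaccharide that TLR4 recognises, at 0.03 nM for 1 h, 0.03 nM for 2 h, 10 nM for 1 h or 10 nM for 2 h. Each group had 2 polyadenylated RNA libraries, from experiment 1 and experiment 2, which the labels call independent without naming animals. P-values therefore rest on the spread between the 2 libraries within a group, pooled over all 5 groups and not only those compared. No untreated cells were collected at 1 h or 2 h, so a change against untreated cells cannot be told apart from an effect of time or handling. The comparison of doses at the same time does not have this limit.

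The mitochondrial ribosome translates the few respiratory chain subunits that mitochondrial DNA encodes. Its RNA parts are made in the mitochondrion, but every one of its proteins is encoded in the nucleus, translated in the cytosol and imported. Many of these proteins descend from bacterial ribosomal proteins, while others were added during the evolution of mitochondria. The numbers in the symbols follow the bacterial names for the older proteins. Mrps18a and Mrps30 carry the small subunit prefix although their proteins sit in the large subunit.

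Library totals ranged from 33179599 to 42167096 counts, and each member had between 120 and 2128 counts in each library. The TMM scaling factors (edgeR's trimmed-mean method, which centres the bulk of genes on no change) ran from 0.775 to 1.15 and were lowest at 10 nM. The 8 macrophage markers summed to between 23800 and 32500 TMM-scaled CPM in every library. The 7 neutrophil markers in the table summed to 18.4 to 25.6 CPM in untreated cells and 30.7 to 37.6 CPM at 10 nM 2 h. The 8 stromal and endothelial markers summed to 43.7 to 104 CPM. All of them but Cdh5 were higher in experiment 2 than in experiment 1 in every group. Col1a1, for one, was at 7.69 and 17.2 CPM in untreated cells of experiments 1 and 2. The B cell, erythroid and mast cell lists summed to at most 4.3 CPM each, and T and NK cell markers to at most 0.231 CPM, with the mast cell protease gene Mcpt4 at 0 counts. The part of these other markers in the results was not tested. In bulk RNA, fewer cells of a type and less RNA per cell cannot be told apart.

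Promoters of 3 members with large changes at 10 nM are shown first, each with a match to one of 6 motifs searched; they were picked after their values were seen. Mrpl52 and Mrpl39 encode proteins found only in mitochondrial ribosomes, and both rose. Mrpl43 encodes another such protein and fell. Each sequence is a RefSeq promoter of build GRCm38.p6 (the counts use mm9), reading 5′ to 3′ on the gene's strand from 250 bases before the start to 50 bases after it, with the motif match in capitals. The Mrpl52 promoter lies at chr14:54426659-54426958 on the plus strand and holds the ETS motif in reverse orientation, the Mrpl39 promoter at chr16:84735195-84735494 on the minus strand holds the NRF1 motif, and the Mrpl43 promoter at chr19:45006393-45006692 on the minus strand holds the ETS motif.
Mrpl52: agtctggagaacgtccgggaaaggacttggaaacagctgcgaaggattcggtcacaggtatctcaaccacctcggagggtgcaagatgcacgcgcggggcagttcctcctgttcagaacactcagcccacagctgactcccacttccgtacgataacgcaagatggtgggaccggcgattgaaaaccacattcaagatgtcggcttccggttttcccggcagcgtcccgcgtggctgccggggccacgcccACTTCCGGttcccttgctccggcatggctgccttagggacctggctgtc
Mrpl39: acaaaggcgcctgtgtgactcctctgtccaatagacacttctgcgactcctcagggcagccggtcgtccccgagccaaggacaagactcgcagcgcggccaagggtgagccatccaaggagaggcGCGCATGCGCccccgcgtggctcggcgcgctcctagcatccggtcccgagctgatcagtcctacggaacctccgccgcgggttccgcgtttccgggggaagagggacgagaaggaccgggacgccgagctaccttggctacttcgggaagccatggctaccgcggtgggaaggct
Mrpl43: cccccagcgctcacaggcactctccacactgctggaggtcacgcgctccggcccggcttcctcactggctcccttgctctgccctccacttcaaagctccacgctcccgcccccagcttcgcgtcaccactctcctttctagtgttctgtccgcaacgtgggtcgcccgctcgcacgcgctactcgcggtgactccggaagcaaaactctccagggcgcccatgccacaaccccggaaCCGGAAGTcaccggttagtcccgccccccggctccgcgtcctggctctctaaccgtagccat

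A promoter was matched for 67 members and none for 9. The motifs were searched on both strands: ETS (CCGGAAGT), NRF1 (the letters in capitals in the Mrpl39 promoter), YY1 (AAGATGGCG), E-box (CACGTG), NF-kB (GGGA, any 2 bases, TTCC) and AP-1 (TGANTCA). ETS factors, NRF1 and YY1 are known regulators of nuclear genes for mitochondrial proteins. The ETS motif was present for 12 of 67 members (17.9%) and in 3.89% of the 32851 promoters in the table. The YY1 motif was present for 8 members (11.9%) against 1.4% of all promoters, and the NRF1 motif for 3 members (4.48%) against 0.971%. The E-box, which MYC binds, was present for 5 members (7.46%) against 7.15%. Of the motifs of inflammatory factors, NF-kB was present for 1 member, Mrpl10 (1.49% against 1.47%), and AP-1 for 3 members (4.48% against 7.81%). Among members that fell at 10 nM 2 h, 5 of the 22 with a promoter held the ETS motif, and among those that rose, 3 of 6. The promoters of Mrpl44 and Mrpl49, which fell most, held none of the 6 motifs. These matches describe letters only, and no binding was measured.

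In untreated cells the median member lay above most genes tested once levels were divided by exonic length. Genes of like length were not compared. Their level per kilobase of exon had a median of 15.9 CPM per kb, against 6.88 over all 12918 genes tested, and 70.3% of genes tested lay below the median member. Levels per kb spanned a 26.6-fold range. The 5 highest members were Mrps21 at 78.4 ± 0.501 (SD, n = 2), Mrpl33 at 52.2 ± 0.758, Mrps18c at 48.6 ± 0.175, Mrps6 at 44.4 ± 1.34 and Mrpl20 at 40.7 ± 1.26 CPM per kb. The 5 lowest were Mrps25 at 2.95 ± 0.134, Mrpl17 at 2.99 ± 0.121, Mrpl1 at 3.26 ± 0.105, Mrpl35 at 3.27 ± 0.0732 and Mrpl15 at 3.67 ± 0.0737 CPM per kb. Mrps25 and Mrpl17 did not differ beyond their spread, nor did Mrpl1 and Mrpl35. The highest members were among the short transcripts and the lowest among the long ones: exonic length was 407 bases for Mrps21 and 6712 for Mrpl17. Members were short as a group, with a median exonic length of 1053 bases against 2814 for genes tested.

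The low dose moved few members. At 0.03 nM 1 h, 1 member passed the test (edgeR quasi-likelihood, p adjusted by Benjamini-Hochberg over the 12918 genes, threshold 0.05), where 1.53% of genes tested were called: Mrps6 fell. At 0.03 nM 2 h, 2 members rose and 1 fell, where 9.82% of genes were called (6.45% higher and 3.37% lower). The 2 that rose were Mrpl52 and Mrpl39, and Mrps6 fell again. The median log2 fold change of the members was -0.02 at 1 h and 0.11 at 2 h, beside 0.00 for all genes at both times. The value at 2 h went with 1 library. In the 0.03 nM 2 h group, 75 of 76 members were higher in experiment 2 than in experiment 1, with a median log2 difference of 0.28, while in the other groups this median lay between -0.09 and 0.00. Short genes were higher in that library across the transcriptome (Spearman correlation of the difference with exonic length -0.478 over 12918 genes). With that group's experiment 1 library left out, 17 members rose and 1 fell against untreated cells. With a correction for length, the members' median was 0.02 and the same number of members was called.

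At 10 nM 1 h, more members fell than rose: 22 of 76 (28.9%) passed the test downward, beside 18.3% of all genes tested, and 2 (2.63%) upward, beside 18.5% (36.9% of all genes in either direction). Values were negative for 62 of 76, and its median was -0.21, against -0.02 for all genes. The largest fall was in Mrpl44, which encodes a protein with an RNase III-like fold near the exit of the large subunit. Next came the large subunit genes Mrpl49 at -0.87 and Mrpl43 at -0.77. Mrpl22, whose protein lines the exit tunnel, and Mrps2, a small subunit protein of bacterial descent, were both at -0.68. The other members with the largest falls were Mrpl50 and Mrps34, both at -0.61, and Mrpl53 at -0.56. Mrpl39 and Mrpl52 were the only 2 members that rose. Scaled by library totals, where the median of all genes shifted to -0.38, 68 members were lower and 2 higher, and the members' median was -0.58. The share of all genes called under that scaling is not given here. The count rested in part on single libraries: 10 members were called when untreated cells of experiment 1 were left out, 14 when the 10 nM 1 h cells of experiment 1 were, and 11 when those of experiment 2 were. Called lower in every fit without 1 library were Mrpl44, Mrpl49, Mrpl43, Mrps2 and Mrpl50.

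At 10 nM 2 h the members split. Of 76, 25 (32.9%) fell and 8 (10.5%) rose, beside 30.1% and 28.6% of all genes tested (58.7% in either direction). The median was -0.08 against -0.03 for all genes, and 41 values were negative. The largest falls were in Mrpl49 at -1.23, Mrpl41 at -0.93, Mrpl44 at -0.90, Mrpl2 and Mrps31 at -0.89, Mrpl43 at -0.87, Mrps35 at -0.85 and Mrps27 at -0.76. Mrpl2 is a core protein near the peptidyl transferase centre, while Mrps31, Mrps35 and Mrps27 belong to the mitochondrion-specific part of the small subunit. The rises were Mrpl52 at 1.59, Mrpl39 at 1.14, Mrps18b at 0.70, Mrpl54 at 0.53, Mrpl13 at 0.49, Mrpl21 at 0.42, Mrpl3 at 0.37 and Mrps18c at 0.23. Of these 8, only Mrpl52 and Mrpl39 were called higher when libraries were scaled by totals, which moved the median of all genes to -0.59, and Mrpl54, Mrpl13, Mrpl21, Mrps18c and Mrpl3 were then below 0. That scaling gave 66 members lower and 2 higher, and scaling by DESeq2 size factors gave 24 lower and 13 higher. For neither scaling is the share of all genes called given here. In each fit without 1 library, 18 of the 25 falls were called, and of the rises Mrpl52, Mrpl39, Mrpl13 and Mrps18b.

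**Figure D1:**
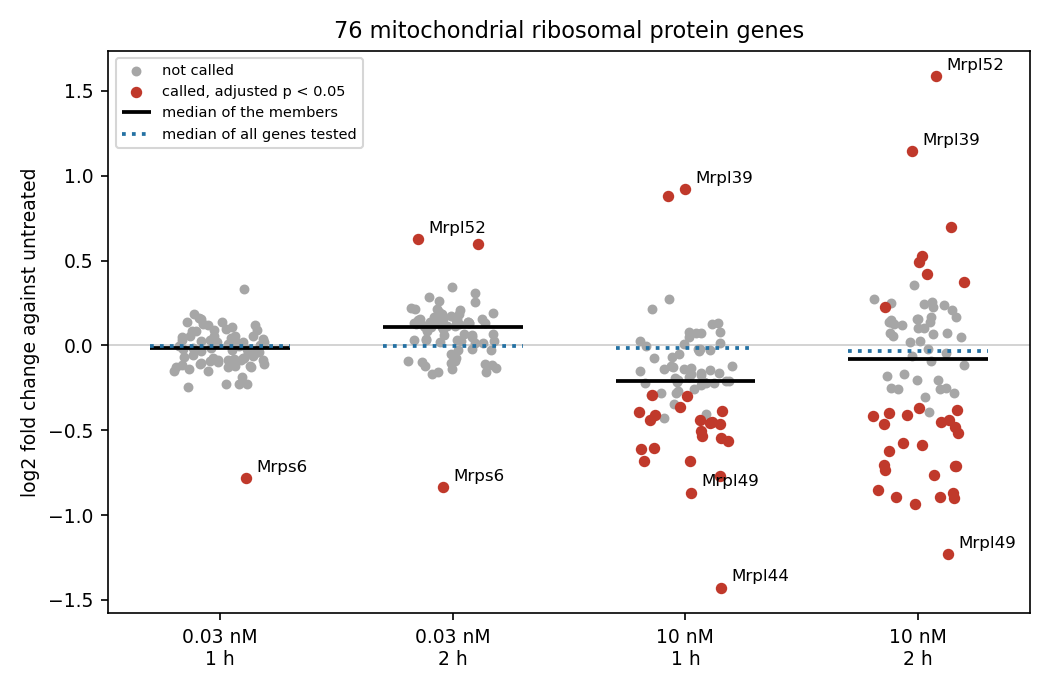
Log2 fold change against untreated cells (y axis) of the 76 members in the 4 stimulated groups (x axis). Each point is a member, red where called at an adjusted p below 0.05; black bars are the members' medians and dotted blue bars the medians of all genes tested. At 10 nM 1 h the members' median lies at -0.21 and 22 members were called lower; Mrpl52 and Mrpl39 stand apart above the others at 10 nM 2 h, and of the 8 rises there 5 are below 0 when libraries are scaled by totals.

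Across both times at 10 nM, 20 members were lower at each, 2 were lower at 1 h only (Mrps24 and Mrps2) and 5 at 2 h only (Mrpl10, Mrps27, Mrps6, Mrpl1 and Mrpl34). Mrpl52 and Mrpl39 were higher at each time. The other 6 rises were called at 2 h only. In all, 35 members were called against untreated cells in at least 1 stimulated group, and 30 members were called in none of the 9 contrasts. For scale, 36.9% of all genes tested were called at 10 nM 1 h and 58.7% at 10 nM 2 h, each in a single contrast. Shares of all genes for these combined counts are not given here. Called against untreated cells and at least 2-fold were Mrpl44 at 10 nM 1 h and Mrpl49, Mrpl52 and Mrpl39 at 10 nM 2 h. The share of all genes with changes of that size is not given here either.

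Mrpl52, a mitochondrion-specific large subunit protein placed at the central protuberance, had the largest rise. Its gene lies on chromosome 14 at 55045746 to 55048587 (mm9, plus strand, 5 exons in the count table's models, 412 exonic bases). It was at 13.0 and 12.4 CPM in untreated cells of experiments 1 and 2, 13.6 and 14.2 at 0.03 nM 1 h, 18.2 and 21.0 at 0.03 nM 2 h, 25.1 and 21.7 at 10 nM 1 h, and 38.9 and 37.4 at 10 nM 2 h. Both libraries of every later or stronger group stood above both untreated libraries, and the 10 nM 2 h pair stood above all others. Against untreated cells the log2 fold change was 0.63 ± 0.11 (SE) at 0.03 nM 2 h (adjusted p = 0.00248), 0.88 ± 0.11 at 10 nM 1 h (adjusted p = 3.99e-05) and 1.59 ± 0.11 at 10 nM 2 h (adjusted p = 1.12e-07), the last a 3.0-fold level. It also rose from 1 h to 2 h at each dose, by 0.50 ± 0.11 at 0.03 nM (adjusted p = 0.0183) and by 0.70 ± 0.10 at 10 nM (adjusted p = 0.000196). The rise at 0.03 nM did not pass with a length correction (adjusted p = 0.0545) or when 0.03 nM 1 h of experiment 1 was left out (adjusted p = 0.166).

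Mrpl39 encodes a large subunit protein related in sequence to threonyl-tRNA synthetases. It lies on chromosome 16 at 84717825 to 84735547 (mm9, minus strand, 10 exons, 1850 exonic bases). Its levels were 15.0 and 13.8 CPM untreated, 14.5 and 14.7 at 0.03 nM 1 h, 20.6 and 22.9 at 0.03 nM 2 h, 26.6 and 28.0 at 10 nM 1 h, and 32.4 and 31.3 at 10 nM 2 h. The 0.03 nM 1 h libraries lay within the untreated range, and the other 3 groups lay above it in order of dose and time without overlap. The log2 fold change was 0.60 ± 0.09 at 0.03 nM 2 h (adjusted p = 0.00146), 0.92 ± 0.09 at 10 nM 1 h (adjusted p = 9.43e-06) and 1.14 ± 0.10 at 10 nM 2 h (adjusted p = 6.97e-07). At the low dose it rose by 0.58 ± 0.09 from 1 h to 2 h (adjusted p = 0.00383). At 10 nM the rise from 1 h to 2 h was not called.

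Mrpl44 had the largest fall at 10 nM 1 h. It lies on chromosome 1 at 79772593 to 79778020 (mm9, plus strand, 4 exons). Its levels were 18.6 and 18.9 CPM untreated, 19.6 and 18.3 at 0.03 nM 1 h, 14.8 and 18.8 at 0.03 nM 2 h, 6.68 and 7.27 at 10 nM 1 h, and 9.52 and 10.6 at 10 nM 2 h. All 4 libraries at 10 nM lay below all 6 others, and the 1 h pair was the lowest. Its change on the log2 scale was -1.43 ± 0.13 at 1 h, a 2.69-fold lower level (adjusted p = 3.56e-06), and -0.90 ± 0.13 at 2 h (adjusted p = 7.04e-05).

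Mrpl49, a mitochondrion-specific large subunit gene on chromosome 19 at 6053630 to 6057751 (mm9, minus strand, 4 exons), was the member with the largest fall at 2 h. Its levels were 22.0 and 17.3 CPM untreated, 19.8 and 17.2 at 0.03 nM 1 h, 18.2 and 19.7 at 0.03 nM 2 h, 10.2 and 11.3 at 10 nM 1 h, and 7.98 and 8.75 at 10 nM 2 h. The 10 nM libraries lay below all others. Its log2 fold change was -0.87 ± 0.13 at 1 h (adjusted p = 0.000272) and -1.23 ± 0.14 at 2 h, a 2.34-fold lower level (adjusted p = 9.6e-06). It shares 89 exonic bases, 5.17% of its length, with Syvn1 on the opposite strand.

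Mrpl43 lies on chromosome 19 at 45079504 to 45080932 (mm9, minus strand, 3 exons). Its levels were 30.5 and 29.8 CPM untreated, 26.7 and 28.7 at 0.03 nM 1 h, 28.4 and 33.3 at 0.03 nM 2 h, 16.9 and 18.5 at 10 nM 1 h, and 18.4 and 14.5 at 10 nM 2 h. Here the 2 times at 10 nM overlapped, and both lay below the other groups. Against untreated cells its change was -0.77 ± 0.12 at 1 h (adjusted p = 0.000347) and -0.87 ± 0.12 at 2 h (adjusted p = 6.85e-05). Mrpl50, also found only in mitochondrial ribosomes, had 21.6 and 20.8 CPM untreated, 13.9 in both libraries at 10 nM 1 h, and 15.0 and 14.6 at 10 nM 2 h, and its libraries were close within every group. Its log2 fold change was -0.61 ± 0.09 at 1 h (adjusted p = 0.000167) and -0.52 ± 0.09 at 2 h (adjusted p = 0.000316).

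Mrps2, on chromosome 2 at 28323586 to 28326697 (mm9, plus strand, 4 exons), fell at 10 nM 1 h and was not called against untreated cells at 2 h. Its levels were 17.2 and 17.3 CPM untreated, 16.3 and 18.2 at 0.03 nM 1 h, 17.4 and 21.8 at 0.03 nM 2 h, 10.5 and 11.0 at 10 nM 1 h, and 18.4 and 17.8 at 10 nM 2 h. Only the 10 nM 1 h pair lay below the rest. Relative to untreated cells its log2 fold change was -0.68 ± 0.12 at 1 h (adjusted p = 0.000777), and the level at 2 h exceeded that at 1 h by 0.75 ± 0.12 (adjusted p = 0.000384).

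Mrpl13, a large subunit protein of bacterial descent on chromosome 15, showed no fall that passed the test and a later rise. Its levels were 17.7 and 18.2 CPM untreated, 18.8 and 19.4 at 0.03 nM 1 h, 17.6 and 22.8 at 0.03 nM 2 h, 15.6 and 17.2 at 10 nM 1 h, and 25.2 and 25.3 at 10 nM 2 h. The 10 nM 2 h pair lay above all other libraries. The log2 fold change at 10 nM 2 h was 0.49 ± 0.12 (adjusted p = 0.00357), and against 10 nM 1 h it was 0.62 ± 0.12 (adjusted p = 0.00134). Scaled by library totals, the value against untreated cells was -0.06.

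The mouse has 3 genes related to bacterial ribosomal protein S18. Mrps18b had 11.7 and 12.9 CPM untreated, 12.5 and 13.5 at 10 nM 1 h, and 21.2 and 18.7 at 10 nM 2 h. It rose at 2 h by 0.70 ± 0.17 (adjusted p = 0.0041), with the 2 h libraries above the untreated ones. Mrps18c had 24.3 and 24.4 CPM untreated and 29.4 and 27.6 at 10 nM 2 h, a rise of 0.23 ± 0.09 (adjusted p = 0.0445) that did not pass with a length correction (adjusted p = 0.255) or when 10 nM 2 h of experiment 1 was left out (adjusted p = 0.218). Mrps18a had 21.0 and 20.8 CPM untreated and 25.3 and 20.1 at 10 nM 2 h, and its log2 fold change of 0.12 ± 0.15 did not pass the test (adjusted p = 0.502). In the 0.03 nM 2 h group the 2 libraries of Mrps18b stood far apart, at 11.4 and 17.9 CPM.

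**Figure D2:**
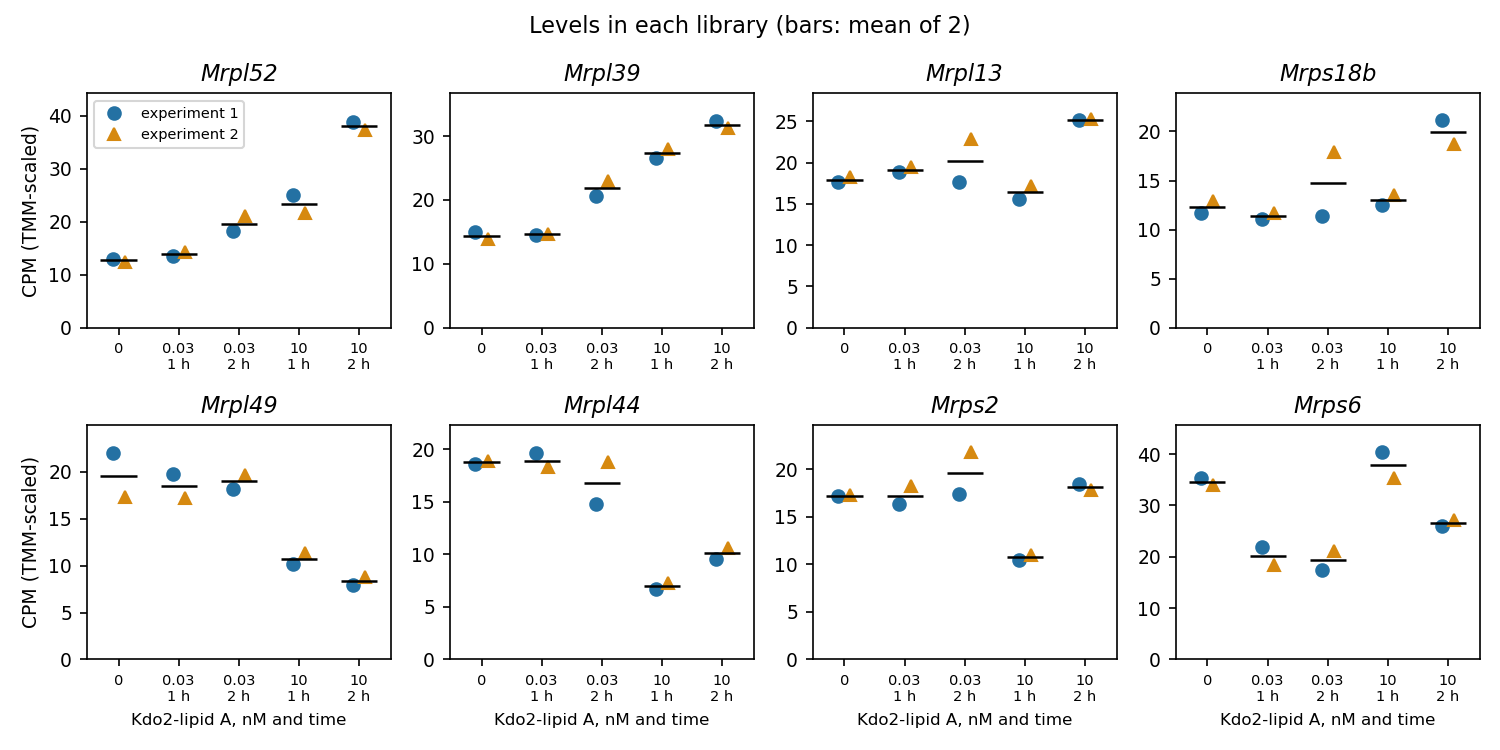
TMM-scaled CPM (y axis, from 0) of 8 members in each library, by dose in nM and time (x axis). Circles are experiment 1, triangles experiment 2 and bars the mean of the 2. Mrpl52 and Mrpl39 climb with dose and time to 38.9 and 32.4 CPM, Mrpl44 and Mrpl49 drop at 10 nM, Mrps2 is low in the 10 nM 1 h pair alone, and Mrps6 is low at 0.03 nM; the rises of Mrpl13 at 10 nM 2 h and of Mrps6 from 0.03 to 10 nM at 2 h are below 0 under library totals.

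Mrps6, a small subunit protein of bacterial descent on chromosome 16 at 92058581 to 92112472 (mm9, plus strand, 3 exons), was the member with a fall at the low dose. Its levels were 35.3 and 33.9 CPM untreated, 21.9 and 18.4 at 0.03 nM 1 h, 17.5 and 21.2 at 0.03 nM 2 h, 40.3 and 35.3 at 10 nM 1 h, and 26.0 and 27.1 at 10 nM 2 h. The low-dose libraries lay below all others and the 10 nM 1 h pair at or above the untreated pair. The log2 fold change was -0.78 ± 0.12 at 0.03 nM 1 h (adjusted p = 0.0042), -0.84 ± 0.12 at 0.03 nM 2 h (adjusted p = 0.000667), 0.13 at 10 nM 1 h, which was not called, and -0.38 ± 0.12 at 10 nM 2 h (adjusted p = 0.0148). The call at 0.03 nM 1 h did not hold when untreated cells of experiment 1 or 0.03 nM 1 h cells of experiment 2 were left out (adjusted p up to 0.07), nor that at 10 nM 2 h when its experiment 1 library was (adjusted p = 0.0808).

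Mrps6 overlaps Slc5a3, the gene of the sodium and myo-inositol transporter, on the same strand, and the 2 models share 145 exonic bases, 18.6% of Mrps6. Slc5a3 moved the same way, with log2 fold changes of -1.53 and -1.89 at 0.03 nM 1 h and 2 h, 0.13 at 10 nM 1 h and -1.17 at 10 nM 2 h. Its values at 0.03 nM and at 10 nM 2 h passed the test, with adjusted p of 0.00522, 0.00043 and 0.000834. How reads of the shared bases were assigned was not tested, so the values of Mrps6 remain uncertain. In all, 9 members share exonic bases with another gene. Mrpl53 shares 14 bases with Ccdc142 on the same strand. Mrps25 (58.3% of its exonic bases, with Nr2c2), Mrpl41 (41.4%, with Wdr85), Mrpl24 (37.4%, with Rrnad1), Mrpl19 (22.9%, with AW146020), Mrps27 (17.0%, with 6430562O15Rik), Mrpl48 (10.1%, with Rab6a) and Mrpl49 overlap genes on the opposite strand. Whether strand was used in counting is not given in the sources used here. For these pairs the reads of both genes on the shared bases cannot be told apart. At 10 nM 2 h the log2 fold change was -1.59 for Nr2c2, -1.61 for Wdr85, -1.43 for AW146020 and -2.19 for Ccdc142. Their members were at -0.44 (Mrps25), -0.93 (Mrpl41), -0.41 (Mrpl19) and -0.37 (Mrpl53). Rrnad1 was at -0.98 where Mrpl24 was at 0.10. Syvn1 (0.64) and 6430562O15Rik (1.45, not called) were above 0 where Mrpl49 and Mrps27 fell, and Rab6a was at 0.54 where Mrpl48 was at 0.07. All these members stay in the counts above.

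The comparison of doses at a fixed time shares its 10 nM libraries with the comparison with untreated cells, and its values are given beside those above. At 1 h, 19 members (25.0%) were lower and 3 (3.95%) higher at 10 nM than at 0.03 nM, beside 17.3% and 18.0% of all genes tested (35.3% in either direction). The largest differences were -1.44 ± 0.13 for Mrpl44 (adjusted p = 3.74e-06), -0.78 for Mrpl49, -0.68 for Mrps2, -0.64 for Mrpl43 and -0.52 for Mrpl19. Higher were Mrps6 by 0.91, Mrpl39 by 0.90 and Mrpl52 by 0.75. The total of 22 became 9 when 0.03 nM 1 h of experiment 1 or 10 nM 1 h of experiment 2 was left out, 13 when 10 nM 1 h of experiment 1 was, and 14 when untreated cells of either experiment were. With 0.03 nM 1 h of experiment 2 left out it was 15, and 15 with 10 nM 2 h of either experiment left out. At 2 h, 25 members (32.9%) were lower and 5 (6.58%) higher at 10 nM, beside 27.2% and 25.6% of all genes (52.8% in either direction). The largest differences were -1.18 for Mrpl49 (adjusted p = 1.83e-05), -0.91 for Mrps35 and Mrpl43, -0.87 for Mrpl2 and -0.85 for Mrps34. Higher were Mrpl52 by 0.96, Mrpl39 by 0.55, Mrps6 by 0.46, Mrps18b by 0.44 and Mrpl13 by 0.32. With library totals, 67 members were lower and 3 higher at 1 h, and 68 lower and 1 higher at 2 h, with Mrps6, Mrps18b and Mrpl13 below 0 at 2 h. Those counts keep the shift common to all genes, and no share of all genes is given for them. The median of the members was -0.20 at 1 h and -0.16 at 2 h, against -0.01 and -0.03 for all genes.

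From 1 h to 2 h the low dose left nearly all members uncalled: Mrpl52 and Mrpl39 rose and none fell, where 5.11% of genes tested were called (3.51% higher and 1.59% lower). Neither was called when the fit held only the 2 groups compared. The number was 12 when 0.03 nM 2 h of experiment 1 was left out. It was 1 when 0.03 nM 2 h of experiment 2 was left out, and 1 when 0.03 nM 1 h of either experiment was. At 10 nM, 16 members (21.1%) rose and 8 (10.5%) fell between 1 h and 2 h, beside 21.3% and 21.5% of all genes (42.8% in either direction). The largest rises were in Mrps2 at 0.75, Mrpl52 at 0.70, Mrpl46 at 0.64, Mrpl13 at 0.62 and Mrps18b at 0.61. Mrpl46, a protein of the central protuberance, had 10.6 and 10.1 CPM untreated, 7.81 and 7.59 at 10 nM 1 h, and 11.6 and 12.3 at 10 nM 2 h. The largest falls were in Mrps27 at -0.60, Mrps6 and Mrpl1 at -0.51, Mrpl2 at -0.50 and Mrps35 at -0.46. Mrpl1 had 13.3 and 13.9 CPM untreated, 11.1 and 12.7 at 10 nM 1 h, and 8.63 and 8.07 at 10 nM 2 h. Of the 16 that rose in this interval, 6 were also above untreated cells at 2 h, 9 were not called against them, and Mrpl44 was still below. All 8 that fell were below untreated cells at 2 h. Scaled by library totals, 4 members rose and 12 fell from 1 h to 2 h, for which no share of all genes is given. The total of 24 was 12 with 10 nM 1 h of either experiment left out and 13 with 10 nM 2 h of experiment 1 left out.

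**Figure D3:**
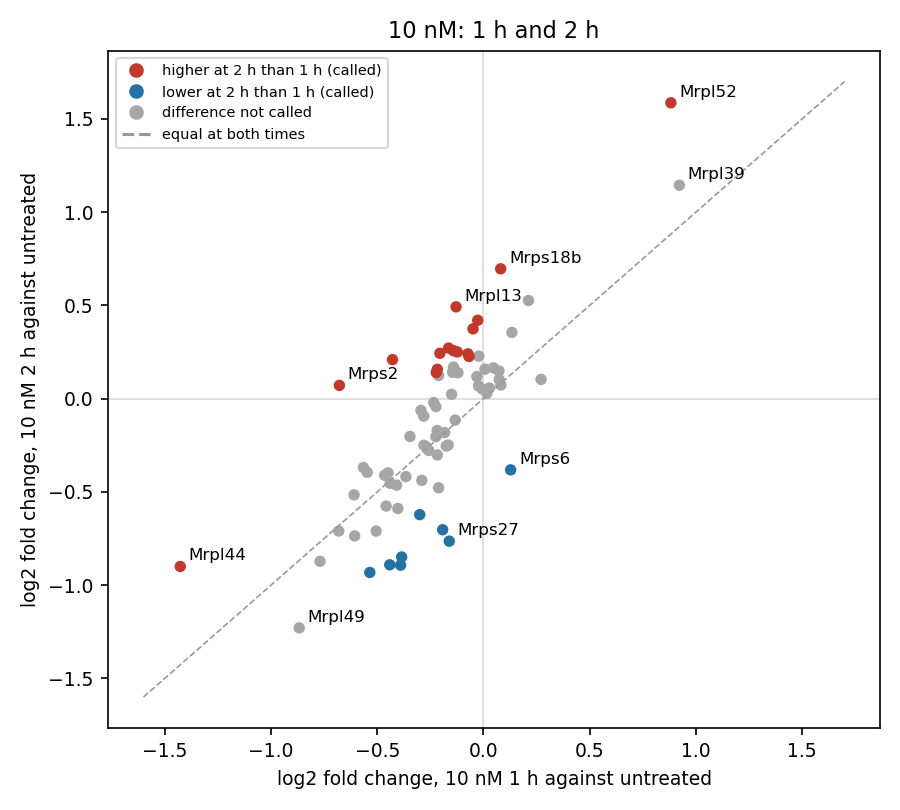
Log2 fold change against untreated cells at 10 nM 1 h (x axis) and 10 nM 2 h (y axis) for the 76 members. Points above the dashed line were higher at 2 h than at 1 h; red and blue mark the 16 rises and 8 falls between these times that passed the test (4 and 12 under library totals). Mrps2 and Mrpl44 lie above the line on the left, and Mrps27 and Mrps6 below it.

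The interaction asks whether the change from 1 h to 2 h differed between the doses. It was called for 4 members, 3 upward (3.95%) and 1 downward (1.32%), beside 10.4% and 11.6% of all genes tested (22.0% in either direction). The change over time was larger at 10 nM than at 0.03 nM by 0.70 ± 0.18 for Mrpl44 (adjusted p = 0.0172), 0.56 ± 0.17 for Mrps2 (adjusted p = 0.0308) and 0.54 ± 0.17 for Mrpl13 (adjusted p = 0.04). For Mrps27 the difference was -0.54 ± 0.18 (adjusted p = 0.049), as its level fell more over time at 10 nM than at 0.03 nM. With the experiment as a block the last was not called (adjusted p = 0.0547), and the count was 3 upward and 0 downward. Library totals gave 1 upward and 9 downward, DESeq2 size factors 3 upward and 0 downward, and the length correction 5 each way. The count was 0 with 10 nM 1 h of experiment 1 or 10 nM 2 h of experiment 2 left out, 1 or 2 with each of 6 other libraries left out, 8 with 0.03 nM 2 h of experiment 2 left out and 12 with that of experiment 1 left out.

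Read against the structure of the ribosome, falls were found in both subunits. At 10 nM 1 h, 14 of the 47 Mrpl genes and 8 of the 29 Mrps genes fell, and at 2 h 17 and 8. Lists of mitochondrion-specific proteins and of proteins with a bacterial homologue were then counted. At 1 h, 8 of 19 mitochondrion-specific large subunit proteins and 6 of 10 mitochondrion-specific small subunit proteins fell. Of those listed with a bacterial homologue, 6 of 30 and 2 of 16 fell. At 2 h the counts were 8 of 19 and 7 of 10 against 9 of 30 and 1 of 16. Of all genes tested, 18.3% were called lower at 1 h and 30.1% at 2 h, so that the large subunit proteins with a bacterial homologue lay near the share of all genes at both times. The median log2 fold change at 2 h was -0.59 for the mitochondrion-specific small subunit proteins and -0.01 for those listed with a bacterial homologue. Whether these sets differ was not tested. Among the small subunit genes, Mrps31 had 10.0 and 10.2 CPM untreated and 5.22 and 5.68 at 10 nM 2 h, and Mrps35 had 7.96 and 7.42 CPM untreated and 4.43 and 4.1 at 10 nM 2 h. Mrps34, a small subunit protein known to be mutated in Leigh syndrome, had 14.1 and 16.9 CPM untreated and 9.26 and 9.3 at 10 nM 2 h. In each of the 3 genes the 2 h libraries lay below the untreated ones. Rises at 10 nM 2 h came to 3 of 30 large subunit and 1 of 16 small subunit proteins listed with a bacterial homologue. They came to 3 of 19 and 1 of 10 mitochondrion-specific ones, beside 28.6% of all genes tested called higher. The small subunit rises were Mrps18b and Mrps18c, so 1 of these S18-related genes was listed as mitochondrion-specific. The lists therefore do not follow descent alone. Mrps36 is in none of these sets.

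At the functional sites of the large subunit, calls went both ways. The counts are small and stand beside shares of all genes tested. These were 18.3% lower and 18.5% higher at 10 nM 1 h, and 30.1% and 28.6% at 2 h. Of 7 proteins near the polypeptide exit, Mrpl39 rose and Mrpl44 and Mrpl22 fell at both times. Of 7 proteins of the central protuberance, Mrpl52 rose, and Mrpl18 and Mrpl40 fell at both times. Mrpl18 had 33.0 and 30.8 CPM untreated, 26.2 and 25.6 at 10 nM 1 h, and 22.9 and 18.5 at 10 nM 2 h, with a log2 fold change of -0.62 ± 0.10 at 2 h (adjusted p = 0.000247); its fall at 1 h did not pass with a length correction (adjusted p = 0.0934). Of 3 proteins of the factor-binding stalk, Mrpl10 fell at 2 h (-0.48). Mrpl12, a stalk protein that also binds the mitochondrial RNA polymerase, had 25.1 and 22.5 CPM untreated and 21.7 and 18.1 at 10 nM 2 h, and its log2 fold changes of -0.27 and -0.26 at the 2 times did not pass the test (adjusted p = 0.155 and 0.133). Mrps30 had 12.6 and 12.4 CPM untreated, 11.6 and 11.2 at 10 nM 1 h and 15.8 and 14.2 at 10 nM 2 h; it rose from 1 h to 2 h by 0.40 ± 0.11 (adjusted p = 0.0102).

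**Figure D4:**
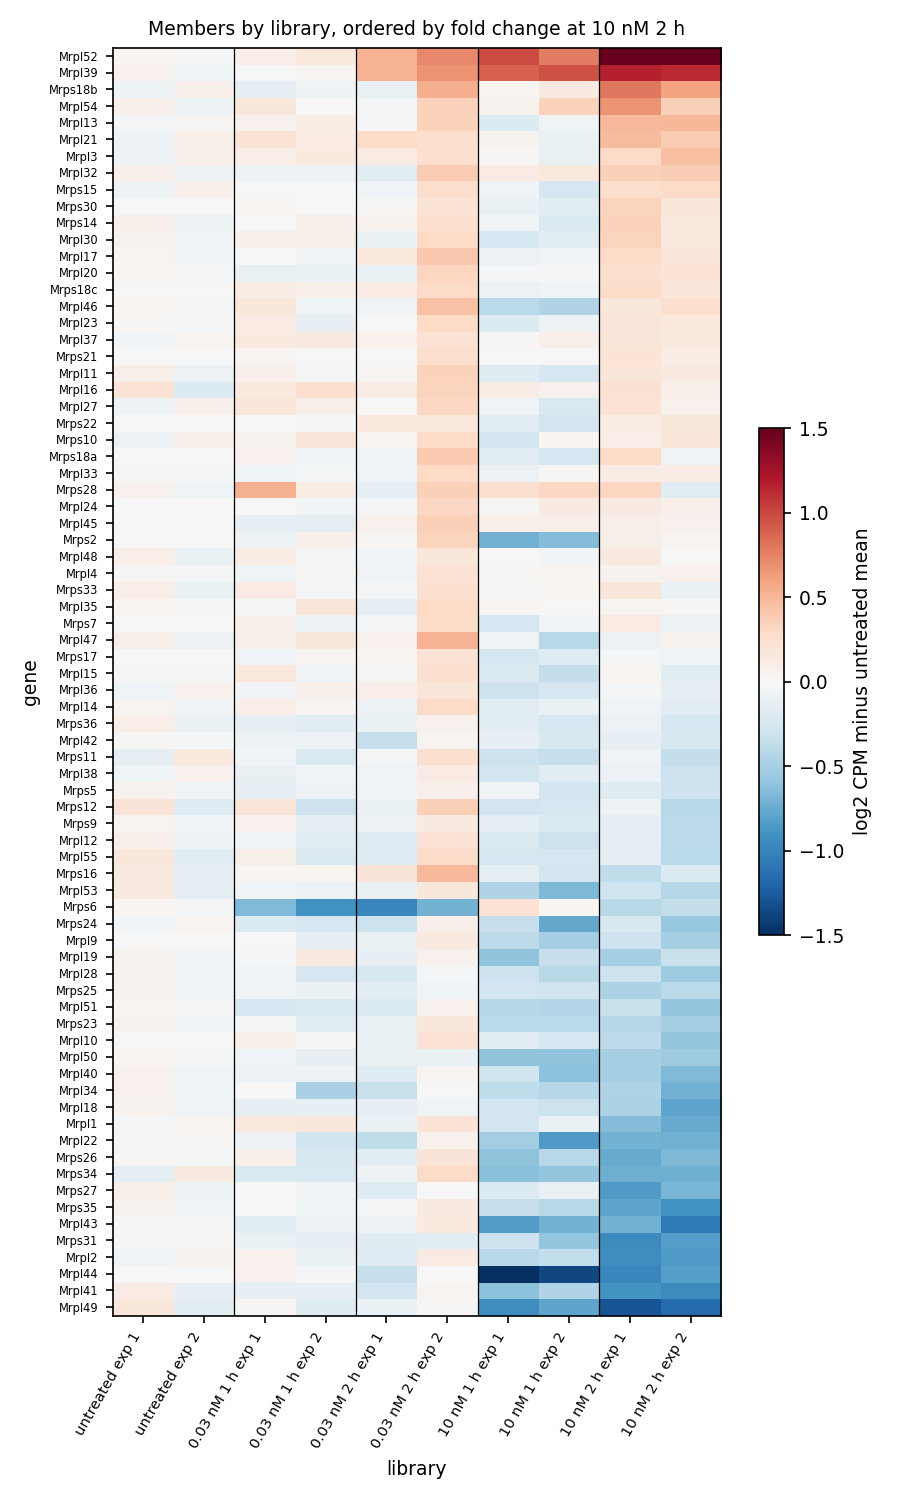
Log2 CPM of each member (vertical axis, ordered by fold change at 10 nM 2 h) minus its mean over the untreated libraries, in each of the 10 libraries (horizontal axis, experiments 1 and 2 side by side). Red is above and blue below the untreated mean, on TMM-scaled values. The experiment 2 library of 0.03 nM 2 h is above that of experiment 1 in 75 of 76 members, and the lower part of the map is blue in all 4 libraries at 10 nM.

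As a share of all counts, members summed to 0.166% and 0.162% in untreated cells, 0.162% and 0.155% at 0.03 nM 1 h, 0.149% and 0.179% at 0.03 nM 2 h, 0.112% in both libraries at 10 nM 1 h, and 0.11% and 0.102% at 10 nM 2 h. The 4 libraries at 10 nM were the lowest. In TMM-scaled CPM, which remove the shift common to most genes, the sums were 1450 and 1402 untreated, 1261 and 1250 at 10 nM 1 h, and 1402 and 1311 at 10 nM 2 h, so that the 2 h sums were no longer clear of the untreated ones.

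Genes that act around the mitochondrial ribosome were counted in lists of their own, to be read beside 18.3% of all genes called lower and 18.5% higher at 10 nM 1 h, and 30.1% and 28.6% at 2 h. Of 7 mitochondrial ribosomal proteins under other symbols, 3 fell and none rose at each time at 10 nM, among them Gadd45gip1 (-0.76 and -0.39). Of 26 genes for assembly and rRNA modification, 14 fell and 2 rose at 1 h, and 16 fell and 4 rose at 2 h. The rRNA methyltransferase gene Mrm1 (log2 fold change -1.95 and -2.10 at 1 h and 2 h) and Ngrn, needed for the large subunit rRNA (-1.36 and -1.89), fell, while the helicase gene Ddx28 rose by 0.57 and 0.82. Of 14 translation factors, 7 and then 10 fell and 0 and then 1 rose; those with large falls were Mtif3, an initiation factor (-2.13 and -1.16), and Taco1, an activator of COX1 translation (-1.42 and -1.99). Of 20 genes for aminoacyl-tRNA synthesis, 8 and then 12 fell and 0 and then 1 rose, with the prolyl enzyme Pars2 at -3.40 and -2.62. Of 15 genes for the expression of mitochondrial DNA, 9 and then 8 fell and 1 and then 3 rose; the RNA polymerase gene Polrmt fell (-1.09 and -1.41), and the RNA-degrading enzyme gene Pnpt1 rose by 1.41 at 2 h. Under library totals, the numbers that fell at 1 h and 2 h were 21 and 21 for assembly, 14 and 14 for translation factors, 17 and 19 for aminoacyl-tRNA synthesis, and 14 and 13 for mitochondrial DNA expression. No assembly gene, Ddx28 included, was then called higher. The shares of all genes above are from TMM scaling and are no measure for these counts. Library totals keep the shift common to all genes, and shares of all genes called under them are not given here.

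Of 11 tested regulators of nuclear genes for mitochondrial proteins, 5 rose and 0 fell at 10 nM 1 h, and 6 rose and 1 fell at 2 h, beside 18.5% of all genes called higher and 18.3% lower at 1 h, and 28.6% and 30.1% at 2 h. Myc rose by 4.14 and 2.20, and Gabpa, the ETS-family subunit of GABP, by 0.65 and 0.88. The partner gene Gabpb1 rose by 0.89 and 1.37, and Gabpb2 fell (-1.40) at 2 h. Under library totals, 4 rose and 3 fell at 1 h, and 6 rose and 5 fell at 2 h, for which no share of all genes is given.

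Counts for 2 related gene sets depended on the scaling. Those under TMM scaling stand beside the same shares of all genes called higher (18.5% and 28.6%) and lower (18.3% and 30.1%). No such share is given for library totals, which keep the shift common to all genes. Of 82 cytosolic ribosomal protein genes tested, 1 rose and 0 fell at 10 nM 1 h, and 54 rose and 0 fell at 2 h, but under library totals 71 and 56 fell and none rose. Of 80 oxidative phosphorylation subunit genes, 1 rose and 2 fell at 1 h, and 19 rose and 3 fell at 2 h, and under library totals 73 and 59 fell. The medians at 2 h were 0.30 for the cytosolic set and 0.12 for the oxidative phosphorylation set, against -0.08 for the members, and under library totals -0.26, -0.44 and -0.63. The difference between sets was not tested.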

How the data were processed

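The authors' deposited table holds raw counts, whole numbers of reads per gene with gene coordinates, per the file headers, and exonic length in bases, which the authors gave per gene, per the file headers. Tools named in the submitters' processing notes were TopHat2 2.0.11, bcl2fastq 2.15.0.4, Subread with featureCounts 1.4.5-p1, and DESeq2, with the build mm9. Not given in the sources used here were the strand setting and the versions of Subread and DESeq2. The kit was directional, per the labels. A table of transformed values was not used here.

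Counts of all genes were analysed with edgeR 4.0.16 (limma 3.58.1, R 4.3.3): filterByExpr on the 5 groups with a minimum count of 10 (12918 genes), TMM scaling, and 1 robust quasi-likelihood model of group means over all 10 libraries, with 5 residual degrees of freedom. A gene was called in a contrast (9 in all) where its p, adjusted by Benjamini-Hochberg over the 12918 genes, was below 0.05, and every adjusted p is from this test unless another setting is named. All shares of genes called are from this test under TMM scaling, and none is given for another setting. CPM are TMM-scaled and given as mean ± SD over 2 libraries, log2 fold changes with SE. The fits were also tested on simulated data.

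The labels share experiment numbers across groups. Deviations from group means correlated at 0.0397 to 0.236 over 10 pairs of groups (median 0.177, 7 above 0.1), so the experiment was blocked only as an alternative. The 18 alternatives were the block, a loess correction for exonic length (span 0.5), both together, DESeq2 1.42.0, scaling by DESeq2 size factors or by library totals, no filter on low counts, only the groups compared, and leaving out each of the 10 libraries.

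Named members, by rule, were those sharing exons with another gene, the 8 largest called rises and falls against untreated cells and 5 in other contrasts (mean of at least 1 log2 CPM, same sign in both experiments), all called where 5 or fewer were, the 5 highest and lowest per kb, a panel (Mrps18a, Mrps18b, Mrps18c, Mrpl12, Mrps30, Mrpl18, Mrpl52) and up to 4 genes of each list by p. Mrps24, Mrpl10, Mrpl34, Mrpl40, Mrpl4 and Mrps36, and neighbouring genes, were named after their values were seen. The members and lists were chosen with earlier results of these data known. Promoters were read from RefSeq (GRCm38.p6). Some members have more than 1 promoter in that table, and the share of members counts genes while the share of all promoters counts promoters.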

Additional observations from a re-analysis of the deposited data

Results flagged for a closer look

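The change from 1 h to 2 h differed between the doses, by a test of the difference itself, for 4 members. They were 5.26% of the members, beside 22.0% of all genes tested, so such calls were rarer among members than among genes at large. The difference (10 nM minus 0.03 nM, log2) was 0.696 for Mrpl44, 0.565 for Mrps2, 0.537 for Mrpl13 and -0.539 for Mrps27. For Mrpl44 the mean went from 18.9 to 16.8 CPM between 1 h and 2 h at 0.03 nM and rose from 6.97 to 10.1 CPM at 10 nM. Its lower mean at 0.03 nM 2 h came from experiment 1 (19.6 to 14.8 CPM), while experiment 2 went from 18.3 to 18.8 CPM. None of the 4 was called from 1 h to 2 h at 0.03 nM, where Mrpl13 and Mrps27 also went opposite ways in the experiments. Mrps2 went from 17.2 to 19.6 CPM at 0.03 nM and from 10.8 to 18.1 CPM at 10 nM. Mrpl13 went from 19.1 to 20.2 CPM at 0.03 nM and from 16.4 to 25.2 CPM at 10 nM, and Mrps27 from 11.0 to 10.5 CPM and from 10.1 to 6.62 CPM. The call was lost without a single library for each, with adjusted p up to 0.0825 for Mrpl44 and 0.159 for Mrpl13 when 10 nM 1 h of experiment 1 was left out, 0.123 for Mrps2 when 0.03 nM 1 h of experiment 2 was, and 0.158 for Mrps27 when 10 nM 2 h of experiment 1 was.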

How the results depend on the processing

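Of 109 calls of named members, 59 were made in each of the 10 fits without 1 library. The replicate block left 107 of the 109 called, with 24 members called at 10 nM 1 h and 33 at 10 nM 2 h as without it; it removed the call of Mrps27 in the interaction and of Mrpl41 from 1 h to 2 h at 10 nM, and changed no count by over 1.5 times. Length correction left 102 called, DESeq2 98, DESeq2 size factors 106, no filter 105, and only the groups compared 101. Scaling by library totals left 90 called and turned 8, with values at 10 nM 2 h against untreated of -0.065 for Mrpl13, -0.136 for Mrpl21, -0.183 for Mrpl3, -0.029 for Mrpl54 and -0.33 for Mrps18c, and for 10 nM against 0.03 nM at 2 h of -0.169 for Mrpl13, -0.045 for Mrps18b and -0.032 for Mrps6. It called 70 members at 10 nM 1 h, 68 at 10 nM 2 h, and 70 and 69 between doses at 1 h and 2 h; that scaling keeps the shift common to all genes. The fit of only the groups compared called 0 members over time at 0.03 nM and 2 in the interaction. The interaction count was 10 with length correction, 12 with block and length correction together, and 10 with library totals; the cause was not tested.

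Leaving out 1 library gave 0 to 1 members at 0.03 nM 1 h, 3 to 18 at 0.03 nM 2 h, 10 to 30 at 10 nM 1 h, 25 to 43 at 10 nM 2 h, 9 to 28 and 22 to 40 between doses at 1 h and 2 h, 1 to 12 and 12 to 31 over time at 0.03 nM and 10 nM, and 0 to 12 in the interaction. In these fits the lone library of a group is assumed to vary like the others. With 2 libraries a group, 5 residual degrees of freedom and members near 120 to 2128 counts, small changes may go uncalled.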

Other observations

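For 4 members the nearest tested gene was over 2 log2 units higher at 10 nM 2 h than in untreated cells, and these pairs were chosen after their values were seen. Mrpl52 ends 1853 bases before Mmp14, a membrane-bound matrix metalloproteinase gene on the same strand (mm9). Mmp14 had a mean of 26.3 CPM untreated and 445 CPM at 10 nM 2 h, with log2 fold changes of 0.74, 1.79, 2.57 and 4.08 at 0.03 nM 1 h, 0.03 nM 2 h, 10 nM 1 h and 10 nM 2 h, where Mrpl52 had 0.13, 0.63, 0.88 and 1.59. Mrpl39 ends 3375 bases from Mir155, the gene of the inflammatory microRNA miR-155, which lies on the other strand with its 3′ end facing that of Mrpl39. Mir155 had 0 counts in both untreated libraries, 4 and 6 counts at 0.03 nM 2 h, 103 and 133 at 10 nM 1 h, and 149 and 130 at 10 nM 2 h. These are the 2 members that rose at both times at 10 nM. Whether reads from beyond the ends of the neighbouring genes entered either member's count was not tested. Mrpl4, in contrast, ends 7122 bases before Icam1, an adhesion molecule gene whose log2 fold change was 4.71 at 10 nM 1 h and 5.07 at 10 nM 2 h, and was itself at 0.03 and 0.06. Mrps35 starts 9251 bases after Rep15 on the same strand, and this pair went opposite ways: Rep15 rose by 2.34 at 10 nM 2 h from a mean of 0.12 to 0.622 CPM, where Mrps35 was at -0.85.

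Of the 76 members, 22 lie head to head within 1 kb of another tested gene. Mrpl43 starts 115 bases from Peo1, the gene of the mitochondrial DNA helicase Twinkle, and both fell at 10 nM. Peo1 had 7.98 and 8.92 CPM untreated, 1.82 and 1.51 at 10 nM 1 h and 1.64 and 1.37 at 10 nM 2 h, with log2 fold changes of -2.35 and -2.49. Mrpl18 starts 373 bases from Tcp1, a subunit of the cytosolic chaperonin, and this pair went opposite ways: Tcp1 rose by 0.40 and 0.78 where Mrpl18 fell by 0.30 and 0.62 on the log2 scale. Over all 76 members, the Spearman correlation of a member's fold change with that of its nearest tested neighbour was 0.326 at 10 nM 1 h and 0.136 at 10 nM 2 h, and over the 54 pairs within 5 kb it was 0.355 and 0.322, a description across genes that share the same libraries. These pairs include the 9 members that share exonic bases with their neighbour. Mrpl46 and Mrps11, each the nearest neighbour of the other, enter as 2 pairs.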
